A study of Mus musculus with 12 samples.

Results

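Death receptors are cell surface proteins of the TNF receptor superfamily, and their ligands can kill a cell that carries the receptor. The genes described here are 10 of the 31053 genes in the matrix, chosen by name: the ligands Fasl, Tnfsf10 (TRAIL) and Tnf, the receptors Fas, Tnfrsf10b (the mouse TRAIL receptor), Tnfrsf1a (TNFR1) and Tnfrsf1b (TNFR2), the adaptor Fadd, the initiator protease Casp8 and its inhibitor Cflar (c-FLIP). The scRNA-Seq data come from CD45+ cells of MC38 tumors, a murine colon adenocarcinoma line grown under the skin of C57BL/6 mice. The 12 mice formed 4 groups of 3, given vehicle or the EZH2 inhibitor PF-06821497 at 100 mg/kg daily for 7 or 16 days, and all tumors were taken on day 17. Ages were not given in the labels. Barcodes carried only a library number from 1 to 12, which no sample label ties to a mouse. Groups were taken from labels alone, so vehicle and EZH2i were not compared and no p-value is given. The question addressed is which immune cells of these tumors carried ligand and which carried receptor.

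Fas ligand or TRAIL that binds its receptor brings the death domains of the receptor and of FADD together, and FADD in turn recruits caspase-8. Caspase-8 that is activated there starts the death of the cell, while c-FLIP, which resembles caspase-8 but lacks its activity, competes for the same complex. Cytotoxic T cells and NK cells are known for Fas ligand and TRAIL, whereas TNF is a cytokine of activated myeloid cells and T cells that usually signals through NF-kB and kills only when that signal is blocked. Tnfrsf1b has no death domain.

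The positions below are those of the mm10 assembly (GRCm38, GENCODE M21). Fasl (ENSMUSG00000000817) lies at chr1:161780689-161788495 on the minus strand, Tnfsf10 (ENSMUSG00000039304) at chr3:27317028-27342427 on the plus strand and Tnf (ENSMUSG00000024401) at chr17:35199381-35202007 on the minus strand. Fas (ENSMUSG00000024778) lies at chr19:34290666-34327772 on the plus strand, Tnfrsf10b (ENSMUSG00000022074) at chr14:69767472-69784411 on the plus strand, Tnfrsf1a (ENSMUSG00000030341) at chr6:125349362-125362484 on the plus strand and Tnfrsf1b (ENSMUSG00000028599) at chr4:145213463-145246870 on the minus strand. Fadd (ENSMUSG00000031077) lies at chr7:144577318-144582463 on the minus strand. Cflar (ENSMUSG00000026031, chr1:58711508-58758884) and Casp8 (ENSMUSG00000026029, chr1:58795374-58847503) are neighbors on the plus strand, 36489 bases apart. The promoters of the 3 ligands and of Fas are shown as context for the genes whose levels are described first for ligand and receptor, and no result below rests on them. The sequences are RefSeq promoters of GRCm38.p6, read 5′ to 3′ in the direction of transcription (chr1:161788496-161788745 minus for Fasl, chr3:27316827-27317027 plus for Tnfsf10, chr17:35202008-35202257 minus for Tnf and chr19:34290409-34290658 plus for Fas). Those of Fasl, Tnf and Fas end at the base before the RefSeq start site. That of Tnfsf10 ends earlier, at the base before the GENCODE start, since bases inside the GENCODE gene were left out.

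Fasl: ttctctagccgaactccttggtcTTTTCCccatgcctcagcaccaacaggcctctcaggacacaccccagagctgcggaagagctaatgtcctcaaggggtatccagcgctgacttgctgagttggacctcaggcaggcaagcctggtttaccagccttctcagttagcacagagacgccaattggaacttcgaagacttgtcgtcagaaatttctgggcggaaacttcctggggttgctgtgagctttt
Tnfsf10: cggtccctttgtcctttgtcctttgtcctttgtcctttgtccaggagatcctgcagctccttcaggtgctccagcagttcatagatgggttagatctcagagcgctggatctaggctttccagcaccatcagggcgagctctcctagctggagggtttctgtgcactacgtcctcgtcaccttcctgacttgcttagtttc
Tnf: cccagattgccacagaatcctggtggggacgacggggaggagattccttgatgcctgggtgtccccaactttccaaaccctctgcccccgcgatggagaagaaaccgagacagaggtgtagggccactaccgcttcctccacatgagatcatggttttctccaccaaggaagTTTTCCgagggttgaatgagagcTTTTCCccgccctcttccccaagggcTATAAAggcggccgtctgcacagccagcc
Fas: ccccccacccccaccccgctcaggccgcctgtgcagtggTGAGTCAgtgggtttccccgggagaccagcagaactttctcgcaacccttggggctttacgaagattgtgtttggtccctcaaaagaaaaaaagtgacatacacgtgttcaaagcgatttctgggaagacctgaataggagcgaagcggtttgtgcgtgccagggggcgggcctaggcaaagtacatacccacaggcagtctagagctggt

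Capitals mark matches, on either strand, to the motifs searched: the TATA box TATAAA, the AP-1 site TGANTCA, the NFAT core GGAAAA, the interferon response element GAAANNGAAA and the NF-kB consensus. These occurred in 12.4%, 6.75%, 20.4%, 2.98% and 3.899% of 32851 promoters, in the 250 bases before the start. Fasl held 1 NFAT core at -227 to -222 from the start, and Fas 1 AP-1 site at -211 to -205. Tnf held a TATA box at -29 to -24 and NFAT cores at -78 to -73 and -55 to -50. None of the 5 motifs was in the 201 bases of Tnfsf10, which says only that these letters are not in that window. The bases between the end of that window and the RefSeq start of Tnfsf10 were not searched. Letters of an NFAT core can also lie within an NF-kB site. Among the other members, Tnfrsf1b held an interferon response element match at -10 to -1 and Cflar 2 overlapping TATA box matches from -134 to -127.

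After limits on genes and mitochondrial UMIs, 128912 of 140639 barcodes (91.7%) were kept, and 104299 of them (80.9%) met the gate of 1 class. Ptprc, which encodes CD45, had a UMI in 77.7% of kept cells, and its level ranged from 304.4 to 511.9 CPM (UMIs per 1000000) between libraries. Classes were gated on UMIs of lineage markers, and 9 of the 18 had at least 20 cells in 4 or more libraries: CD8 T cells (3308 cells in all, 11 libraries), CD4 T cells (688, 8 libraries), NK cells (416, 7 libraries), cDC1 (556, 9 libraries), mature DC with Fscn1, Ccl22 and Ccr7 (1285, 12 libraries), Cd209a DC (243, 7 libraries), monocytes (4548, 12 libraries), macrophages (89510, 12 libraries) and neutrophils (3012, 12 libraries). The median UMIs per kept cell ranged from 2291 in library 6 to 15081 in library 12. Library 4 stood apart, with 4421 CPM of heat shock transcripts against 1171 to 1913 CPM in the others and only 7 CD8 T cells. Libraries 1 to 6 held Y-linked transcripts and libraries 7 to 12 held Xist, although the study's methods name female mice. Barcode sequences shared between libraries accounted for 4140 kept cells (3.21%), and without them all 19 of the calls below stood. Levels below are CPM over the summed UMIs of a class in 1 library, given as the median over libraries with the lowest and the highest. A class is called above the rest when its level exceeded that of all other kept cells of the same library in at least 90% of libraries. Macrophages made up 69.4% of kept cells, so for every other class the rest was mostly macrophages. A call above the rest thus does not place a class above each other class. Intervals in parentheses after pooled values are 95% exact intervals that cover counting error only.

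Among the gated classes, Fasl transcripts were carried mainly by T cells and NK cells. The median level in CD8 T cells was 98.3 CPM, from 54.1 CPM in library 6 to 218.8 CPM in library 8, while all other cells of the same libraries had a median of 2.17 CPM. In NK cells Fasl was at 79.9 CPM (31.4 to 155.2), and in CD4 T cells at 61.4 CPM (41.9 to 113.7). Each of these classes was above the rest in every library that could be read, 11 of 11, 7 of 7 and 8 of 8. The medians of the 6 other classes were under 0.5 CPM. Among them a single library reached the range of the lymphocytes, Cd209a DC of library 6 at 40.6 CPM, a value made of 2 UMIs in 25 cells. Fasl was higher in CD8 than in CD4 T cells in 8 of 8 shared libraries, 1.60-fold at the median, whereas CD8 T cells exceeded NK cells in only 5 of 7, so the order of those neighbors was not set. With thinned cells the NK level was above the rest in 6 of 7 libraries, short of the 90% needed.

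The share of cells with a Fasl UMI gave the same picture. It was 34.9% in CD8 T cells (33.3 to 36.5), 25.4% in CD4 T cells (22.2 to 28.9) and 25% in NK cells (20.9 to 29.4). In macrophages it was 0.275% (0.242 to 0.311, and 0.175% without library 6), although they had more UMIs per cell (median 5128, against 3282 in CD8 T cells). Cells of at least 1000 UMIs were also thinned to 1000 UMIs each, and cells of lower depth were left out. The Fasl shares were then 12.6%, 8.35%, 7.83% and 0.0772%. B cells gave 0 of 277 cells, which allows a share of cells with a UMI of up to 1.08% (3 counts) at their median depth of 1324 UMIs. Gamma delta T cells, with only 55 cells in all libraries together, had 101.7 CPM (64.5 to 152.7) from 23 UMIs, and regulatory T cells 20.9 CPM (6.77 to 48.7) from 5 UMIs in 37 cells. Both rested on library 8, without which they had 52.1 CPM from 6 UMIs and 8.64 CPM from 1 UMI. Only 59.6% of the Fasl UMIs of kept cells (2542 of 4264) lay in gated cells, and the others were in barcodes of no class. Of the Fasl UMIs in gated cells of a library, CD8 T cells held a median of 74.6% (0 to 88.0%) and macrophages 4.25% (1.11 to 62.7%). Macrophages held most in library 6, with 143 UMIs against 70 in CD8 T cells. In library 4, with its 7 CD8 T cells, CD8 T cells held none and neutrophils 71.4%, on 10 UMIs.

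Within CD8 T cells, Fasl was measured in all states gated. CD8 T cells with Havcr2, the exhaustion receptor TIM-3, had a median of 106.1 CPM (73.2 to 238.0, 8 libraries), those with Mki67, a marker of cycling, 73.6 CPM (45.2 to 145.2, 8 libraries) and those with Tcf7, the stem-like T cell factor, 140.6 CPM (17.8 to 227.1, 4 libraries). Cycling cells were lower than Havcr2 cells in 6 of 8 libraries, which does not separate them. Tcf7 cells exceeded Havcr2 cells in 2 of 3 shared libraries and cycling cells in 3 of 3, too few libraries for a call. The lowest Tcf7 value came from 1 UMI in library 10. The CD8 T cell level also differed between library sets at the median, though the sets overlapped. It was 96.8 CPM at the median of the 5 libraries numbered under 7 that could be read (54.1 to 98.3), and 138.7 CPM at the median of libraries 7 to 12 (92.9 to 218.8). The sets also differed in sex-linked transcripts, and no label gives the treatment or the days of dosing of a library, so that the part of sex, treatment and dosing time in this difference was not tested.

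Tnfsf10 shared its leading classes with Fasl but was also present at a low level in macrophages and monocytes. NK cells had 72.6 CPM (26.2 to 110.9), CD4 T cells 48.7 CPM (29.8 to 83.8) and CD8 T cells 46.8 CPM (38.2 to 77.1), and each was above the rest in every library read. These neighbors did not differ, since NK cells exceeded CD4 T cells in 4 of 6 libraries and CD4 T cells exceeded CD8 T cells in 4 of 8. The lowest NK values rested on few reads, 3 UMIs each in libraries 3 and 6, and with thinned cells NK cells were above the rest in 5 of 7 libraries and CD4 T cells in 7 of 8, so that both calls were lost. Macrophages had 8.80 CPM (4.70 to 14.0) and monocytes 7.90 CPM (2.26 to 21.2), below CD8 T cells in 11 of 11 libraries each. Mature DC (0.715 CPM) and cDC1 (1.33 CPM) were below the rest in all their libraries, and neutrophils (1.93 CPM, 0 to 39.4) in 11 of 12. Because macrophages were so many, they nonetheless held a median of 84.0% of the gated Tnfsf10 UMIs of a library (52.3 to 93.6%), against 11.6% for CD8 T cells.

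Macrophages were not uniform in Tnfsf10. Those with Cxcl9, a chemokine gene induced by interferon, had 15.0 CPM (6.87 to 20.1), and those with Arg1, the arginase of tumor macrophages, 6.16 CPM (2.94 to 8.14). The Cxcl9 macrophages were higher in 12 of 12 libraries, 2.34-fold at the median, in a comparison in which 14.4% of genes were higher in the Cxcl9 macrophages by the same rule. Macrophages with Mrc1 and Folr2 (7.36 CPM), a set that can share cells with either, had a median between the 2. They were above Arg1 macrophages in 12 of 12 libraries.

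Among the 9 classes, Tnf was highest in neutrophils, followed by macrophages and monocytes. They had a median of 166.2 CPM, from 57.5 CPM in library 1 to 866.5 CPM in library 5, where the value came from 22 UMIs in 28 cells. The other 10 libraries lay between 139.4 and 328.5 CPM. Macrophages had 48.4 CPM (30.5 in library 9 to 97.0 in library 5) and monocytes 43.4 CPM (14.2 to 67.3). Neutrophils exceeded macrophages in 12 of 12 libraries and all other cells in 12 of 12. T and NK cells were low for Tnf, with 12.9 CPM in CD4 T cells (7.43 to 42.1), 8.65 CPM in CD8 T cells (0 to 15.5) and 7.26 CPM in NK cells (0 to 12.96), each below the rest in every library. So were mature DC, with 16.2 CPM (1.55 to 43.3), and cDC1, with 4.12 CPM (0 to 11.98). Cd209a DC had 29.8 CPM (6.08 to 68.7) and were not called. Mature DC exceeded CD4 T cells in only 4 of 8 libraries, and NK cells exceeded cDC1 in 4 of 7. Basophils or mast cells had 173.3 CPM (107.3 to 264.9) from 21 UMIs in 41 cells of all libraries, and 105.8 CPM without library 7. Macrophages held a median of 93.0% of gated Tnf UMIs (74.9 to 98.7%) and neutrophils 2.27%.

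Tnf varied with the state of neutrophils. Those with Ccl3, a chemokine gene of activated neutrophils, had 303.9 CPM (208.3 to 427.9) in the 8 libraries with 20 cells of both states, and those with Retnlg, a gene of circulating neutrophils, 113.9 CPM (81.4 to 177.1). The Ccl3 neutrophils were higher in 8 of 8 libraries, 2.35-fold at the median, and the ranges did not overlap; 1.55% of genes were higher in Ccl3 neutrophils in this way. Immediate early transcripts, which rise when cells are stressed during isolation, were also high in neutrophils, from 8804 to 23535 CPM against 4266 to 8161 CPM in macrophages. In macrophages both Tnf and this sum were highest in library 5. Library 3, next in macrophage Tnf at 70.6 CPM, had a sum of 5337 CPM. Library 12, next in the macrophage sum at 8038 CPM, had Tnf at 58.3 CPM. In neutrophils Tnf and this sum were not highest together. The sum was 23535 CPM in library 8 with Tnf at 139.4 CPM, and 15478 CPM in library 5 with Tnf at 866.5 CPM. The part of isolation in the Tnf levels was not tested. Within the CD8 T cells, those with Tcf7 had more Tnf than those with Havcr2 in the 3 libraries with both (31.3 against 6.10 CPM at the median), on 4, 3 and 7 UMIs with Tcf7 and 2, 5 and 3 UMIs with Havcr2, too few libraries for a call by the rule above.

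**Figure D1:**
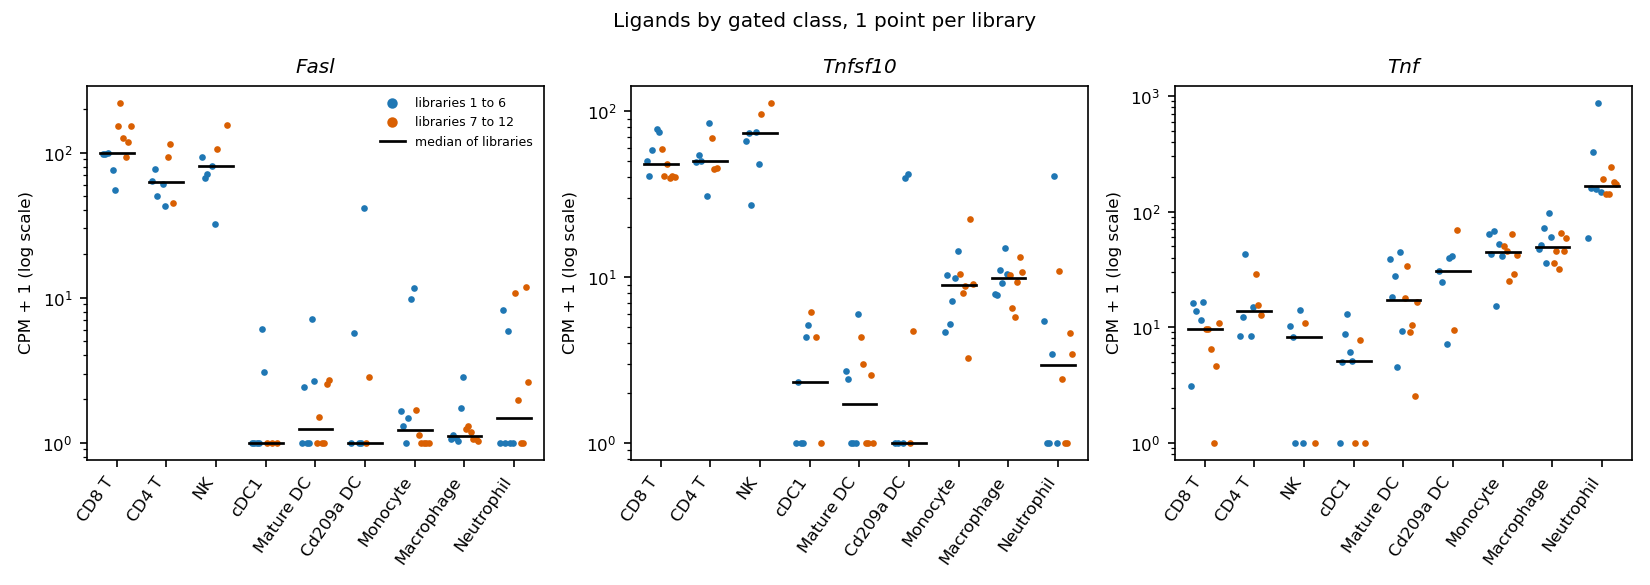
Levels of Fasl, Tnfsf10 and Tnf (CPM + 1, log axis) in the 9 gated classes, with 1 point for each library holding at least 20 cells of the class, blue for libraries 1 to 6 and orange for libraries 7 to 12, and a black line at the median. Fasl and Tnfsf10 are highest in CD8 T, CD4 T and NK cells, and Tnf in neutrophils, where the median is 166.2 CPM.

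Fas, the receptor of Fas ligand, was highest in neutrophils and mature DC. The neutrophil median was 104.5 CPM, from 41.6 CPM in library 6 (2 UMIs) to 315.1 CPM in library 5 (8 UMIs), against 11.1 CPM in all other cells. Mature DC, the migratory dendritic cells that carry Ccr7, had 60.4 CPM (27.6 in library 8 to 98.9 in library 5). Both were above the rest in 12 of 12 libraries, and neutrophils exceeded mature DC in 11 of 12. The other dendritic cells were low, with 1.33 CPM in cDC1 (0 to 8.23) and 1.86 CPM in Cd209a DC (0 to 38.6), and mature DC exceeded cDC1 in 9 of 9 libraries without overlap. Fas in neutrophils was measured at 18.5% of cells (17.2 to 19.96), although their median depth of 1431 UMIs was the lowest of the 9 classes. After thinning to 1000 UMIs the share was 9.94% in neutrophils, 7.17% in mature DC and 0.985% in macrophages. These thinned shares cover only cells with at least 1000 UMIs, 2042 of 3012 neutrophils and 1241 of 1285 mature DC.

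The lymphocytes that carried Fasl differed in Fas. CD8 T cells had 22.3 CPM (10.4 to 49.2), above the rest in 11 of 11 libraries, where the rest had 11.4 CPM. With cells thinned to 1000 UMIs this held in 9 of 11 libraries, and likewise with cells weighted equally, which ends the call. CD4 T cells had 26.9 CPM (8.82 to 56.2), above the rest in 7 of 8 libraries and thus not called, although with thinned or equally weighted cells they were above in 8 of 8. In NK cells only 5 Fas UMIs were found in 416 cells, 1.20% of cells (0.391 to 2.78), with a median of 2.16 CPM. NK cells were lower in Fas than CD4 T cells in 6 of 6 libraries and than CD8 T cells in 6 of 7. Monocytes had 21.6 CPM (11.5 to 35.3), and macrophages 8.81 CPM (5.42 to 11.5), lower than monocytes in 12 of 12 libraries. Being most of the cells, macrophages held a median of 72.0% of gated Fas UMIs.

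Tnfrsf10b was barely detected in CD45+ classes. Its median was 1.12 CPM in CD8 T cells (0 to 3.60) and under 0.6 CPM in the 8 others, and no class was above the rest. In all, 608 UMIs were counted in 128912 kept cells, so that levels of this size could not be ordered between classes at this depth. Cd209a DC were counted as below the rest with 0 UMIs in 243 cells, which allows a level of up to 1.70 CPM and so does not separate them from the 0.627 CPM of the rest. The 99 cells of the stroma gate, which were chosen by collagen and Cdh5 transcripts and of which 17.2% had a Ptprc UMI, had 17.9 CPM (11.1 to 27.4) from 21 UMIs.

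Tnfrsf1a, the TNF receptor with a death domain, was highest in neutrophils and monocytes. Neutrophils had a median of 254.6 CPM (121.9 in library 4 to 393.9 in library 5) and monocytes 162.4 CPM (106.3 to 187.6), and both were above the rest in 12 of 12 libraries. Cd209a DC (117.0 CPM), macrophages (100.7 CPM) and cDC1 (82.3 CPM) followed, and neighbors in this order were not separated. Mature DC had 43.0 CPM (22.6 to 87.6), lower than cDC1 in 9 of 9 libraries and higher than CD4 T cells in only 4 of 8. In lymphocytes Tnfrsf1a was lower, at 34.3 CPM in CD4 T cells (22.7 to 52.2), 29.6 CPM in NK cells (15.1 to 50.8) and 24.985 CPM in CD8 T cells (14.7 to 32.8), all below the rest in every library. Among neutrophils, those with Ccl3 had 168.7 CPM and those with Retnlg 253.8 CPM, lower with Ccl3 in 8 of 8 libraries; 2.21% of genes were higher in the Retnlg neutrophils by this rule. Tnf and Tnfrsf1a therefore had opposite order in the 2 neutrophil states.

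Tnfrsf1b, the TNF receptor without a death domain, was less divided between lineages. Neutrophils led with 443.1 CPM (228.9 in library 6 to 630.2 in library 5), above the rest in 12 of 12 libraries but above CD4 T cells in only 7 of 8. CD4 T cells had 169.6 CPM (108.8 to 302.0), above the rest in 8 of 8, and CD8 T cells 130.4 CPM (81.9 to 159.2), above in 9 of 11 and not called. Monocytes had 124.9 CPM (above the rest in 10 of 12), NK cells 118.8 CPM and macrophages 97.7 CPM (56.6 to 125.5), with neighbors in this order not separated. Patrolling monocytes, 35 cells in all, had 348.0 CPM (270.2 to 441.2). In macrophages the order of the 2 states was opposite to that of Tnfsf10, with 107.9 CPM in Arg1 and 73.6 CPM in Cxcl9 macrophages, lower with Cxcl9 in 12 of 12 libraries; 20.7% of genes were higher in Arg1 macrophages by this rule.

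**Figure D2:**
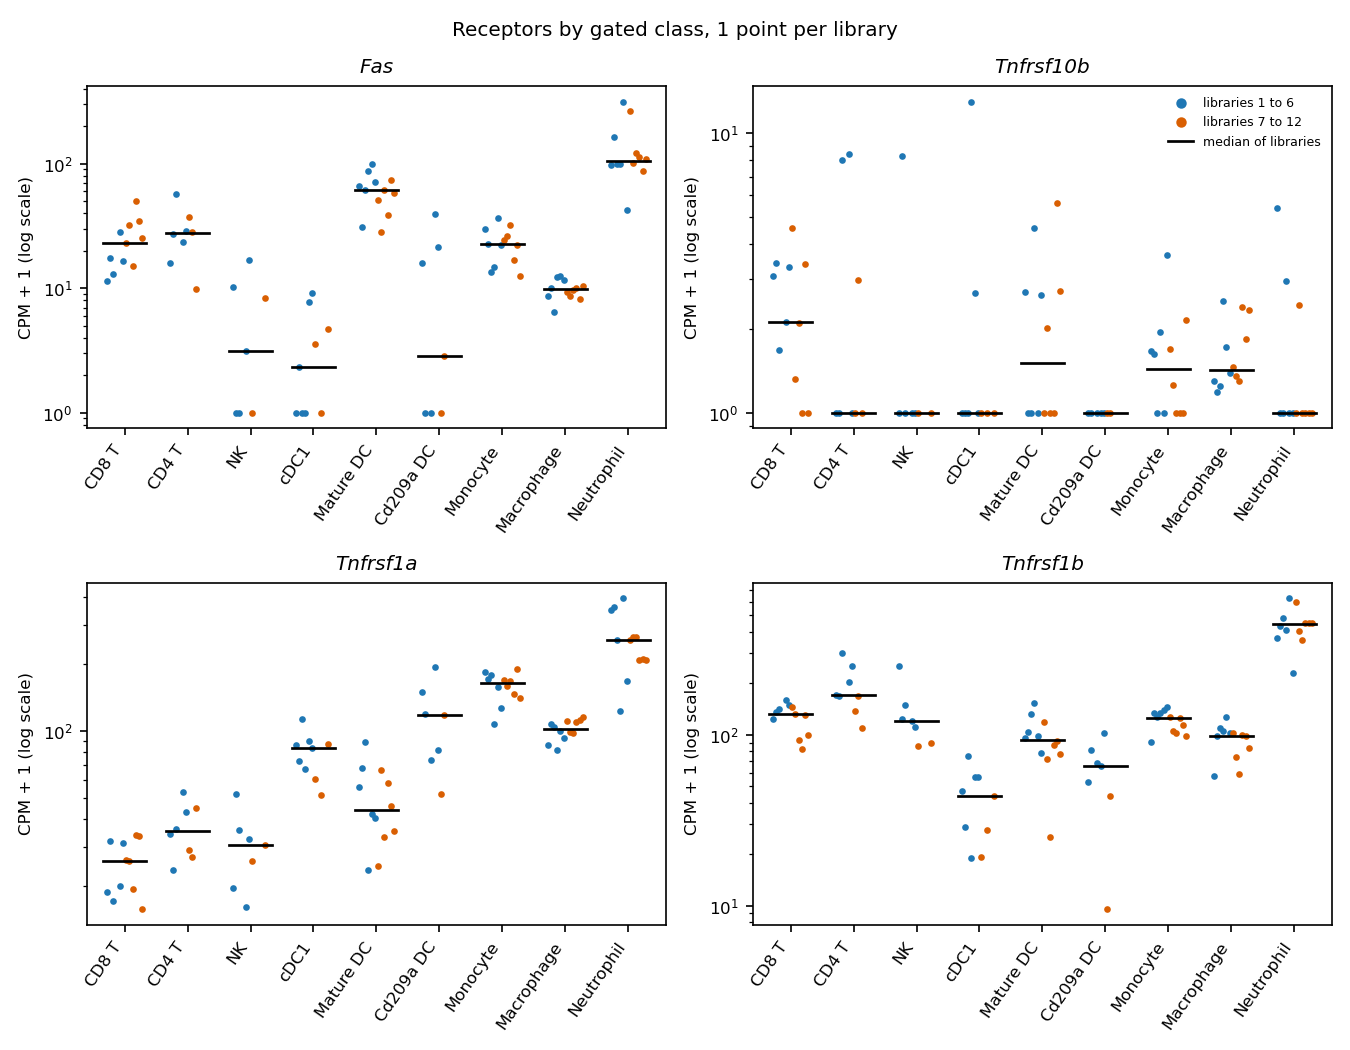
Levels of Fas, Tnfrsf10b, Tnfrsf1a and Tnfrsf1b (CPM + 1, log axis) in the 9 gated classes, 1 point for each library with at least 20 cells of the class (blue for libraries 1 to 6, orange for libraries 7 to 12) and a black line at the median. Neutrophils have the highest median of Fas, Tnfrsf1a and Tnfrsf1b, and the medians of Tnfrsf10b are at or under 1.12 CPM, with single points up to 11.98 CPM.

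Of the intracellular members, Casp8 and Cflar were measured in all 9 classes and Fadd was low. For Fadd, macrophages had the highest median at 9.20 CPM (6.46 to 11.1), above the rest in 12 of 12 libraries, where the rest had 5.96 CPM, but in 10 of 12 with thinned cells. They exceeded mature DC (8.24 CPM) in only 6 of 12 libraries, so the order of those neighbors was not set. Neutrophils had 0.643 CPM (0 to 8.21), below the rest in 12 of 12, with only 11 UMIs in 3012 cells. Fadd overlaps the antisense gene Faddos, which is also in the matrix, and whether the counting used strand is not given in the sources used here, so that its values are uncertain to that extent.

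Casp8 was highest in monocytes, at 120.3 CPM (85.8 to 146.7), above the rest in 11 of 12 libraries but in 9 of 12 with thinned cells. Macrophages had 90.9 CPM (73.5 to 102.6), CD4 T cells 94.8 CPM (67.1 to 132.1), CD8 T cells 77.4 CPM (53.4 to 120.2) and neutrophils 75.6 CPM (48.9 to 108.7). No pair of neighbors in the order of Casp8 was separated. The lowest levels were those of mature DC (45.8 CPM) and cDC1 (33.3 CPM), both below the rest in every library.

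Cflar differed more between classes than Casp8. Neutrophils had 172.5 CPM (41.6 in library 6, from 2 UMIs, to 312.1 in library 3), mature DC 163.9 CPM (123.5 to 253.4) and monocytes 131.6 CPM (104.9 to 164.0), and these were above the rest in 11, 12 and 12 of 12 libraries. The neutrophil call was lost with thinned cells (9 of 11 libraries) and with all cells weighted equally (10 of 12). The lowest medians were those of CD8 T cells, 51.4 CPM (34.8 to 73.4), and cDC1, 38.9 CPM (9.32 to 65.9), both below the rest in all libraries. NK cells (59.7 CPM) exceeded CD8 T cells in only 4 of 7 libraries, and CD8 T cells exceeded cDC1 in 6 of 8, so neighbors were not separated. In the libraries with both, CD4 T cells exceeded CD8 T cells in 8 of 8 (112.0 against 51.9 CPM at the median) and NK cells in 6 of 6. Among CD8 T cells, those with Havcr2 had 74.7 CPM and cycling cells 43.4 CPM, higher with Havcr2 in 8 of 8 libraries; 3.05% of genes were higher with Havcr2 by this rule. Regulatory T cells had 166.9 CPM (119.2 to 227.2) from 40 UMIs.

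The ratio of Cflar to Casp8 UMIs was used only to compare classes, since the transcripts may be captured with unequal efficiency. It was 3.54 at the median in mature DC (1.94 to 6.83) and 2.14 in neutrophils (0.667 to 3.60), against 1.03 in monocytes and 0.871 in macrophages. CD8 T cells had a ratio of 0.667 (0.318 to 1.304), and those with Havcr2 1.06 (0.5 to 1.72). NK cells, at 0.75 (0.667 to 2.8), were higher than CD8 T cells in 4 of 7 libraries, which does not set their order, while that of CD4 T cells was 1.22 (0.516 to 2.33). Summed over libraries, the ratio was 3.32 (2.96 to 3.73) in mature DC and 0.722 (0.659 to 0.791) in CD8 T cells.

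**Figure D3:**
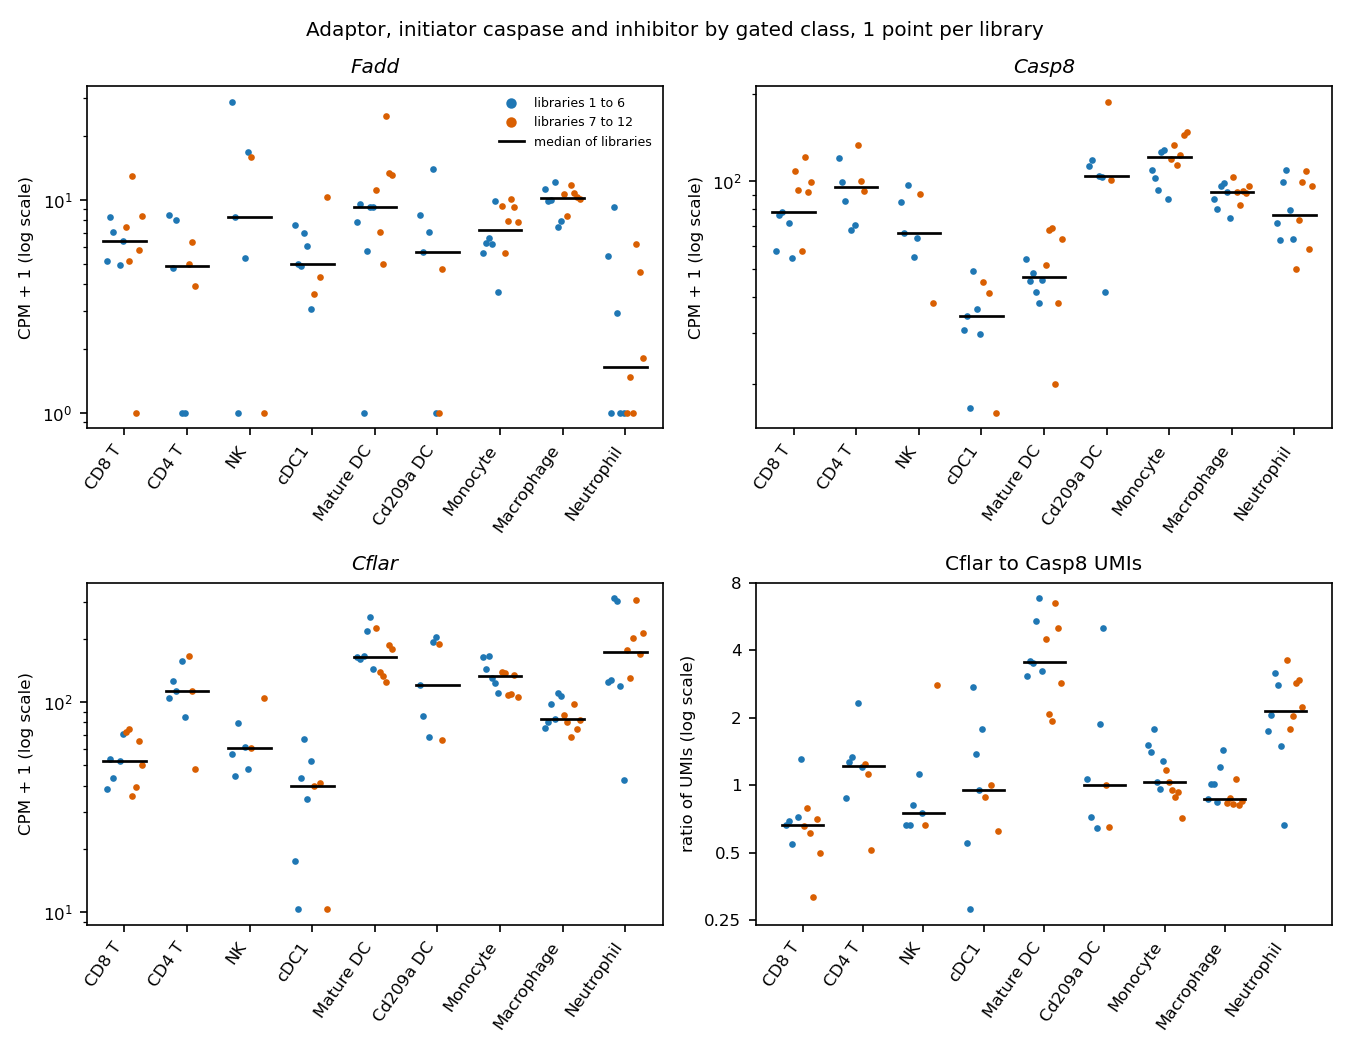
Levels of Fadd, Casp8 and Cflar (CPM + 1, log axis) and the ratio of Cflar to Casp8 UMIs (log axis) in the 9 gated classes, 1 point for each library with at least 20 cells of the class (blue for libraries 1 to 6, orange for libraries 7 to 12) and a black line at the median. The median ratio is 3.54 in mature DC and 0.667 in CD8 T cells, the latter not separated from the 0.75 of NK cells.

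Set against all other cells, 19 of the 90 pairs of a member and a class were above the rest and 29 were below. For 4 of the 29, namely Fasl in cDC1, Tnfrsf10b in Cd209a DC and Fadd in CD8 and CD4 T cells, no single library's 95% counting interval lay below the rest, while each of the 19 had at least 1 library whose interval lay above it. CD8 T cells were above the rest in Fasl, Tnfsf10 and Fas, 3 of the 8 members at 10 CPM or more in the class or in the rest, where 34.6% of all genes tested were above. CD4 T cells were above in Fasl, Tnfsf10 and Tnfrsf1b, 3 of 8 (14.6% of genes), and NK cells in Fasl and Tnfsf10, 2 of 8 (11.5% of genes). Mature DC were above in Fas and Cflar, 2 of 6 (19.3% of genes). Monocytes were above in Tnfrsf1a, Casp8 and Cflar, 3 of 6 (18.1% of genes). Neutrophils were above in Fas, Tnf, Tnfrsf1a, Tnfrsf1b and Cflar, 5 of 6, against 14.7% of genes. Macrophages were above in none of their 8 (29.0% of genes), Fadd being under the limit of 10 CPM. cDC1 stood at the other end, above in 0 of 7 (12.4% of genes) and below in 6 of 7, namely Fas, Tnfsf10, Tnf, Tnfrsf1b, Casp8 and Cflar, where 23.3% of genes were below. Cd209a DC were above in 0 of 6 (7.43% of genes) and below in Tnfrsf1b, 1 of 6 (12.7% of genes). CD8 T cells were below in Tnf, Tnfrsf1a and Cflar (3 of 8, 31.4% of genes), and CD4 T cells (2 of 8, 16.5% of genes) and NK cells (2 of 8, 20.2% of genes) in Tnf and Tnfrsf1a, counts close to those shares. Mature DC were below in Tnf, Tnfrsf1a and Casp8, 3 of 6 (36.3% of genes), and macrophages in Fasl, Fas and Tnfrsf1b, 3 of 8 (24.8% of genes). Neutrophils were below in 0 of 6 (45.5% of genes) and monocytes in 0 of 6 (31.4% of genes), while under the limit of 10 CPM neutrophils were below in Tnfsf10 and Fadd and monocytes in Fadd.

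**Figure D4:**
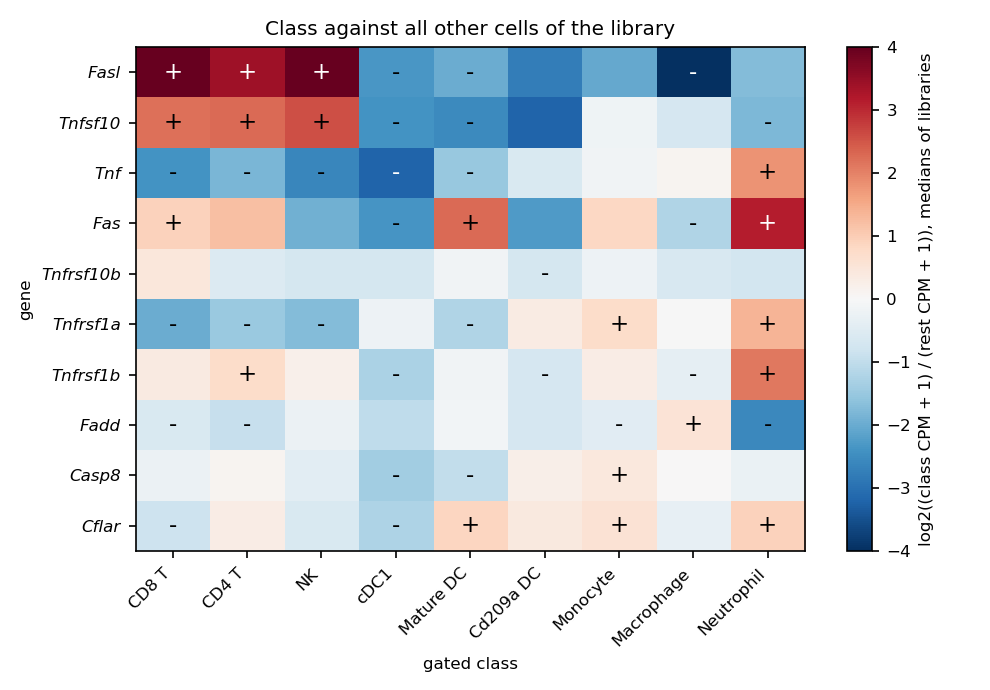
Median level of each gene in a gated class against the median in all other cells of the same libraries, as log2 of the ratio of CPM + 1, red for higher and blue for lower, with the color scale limited to 4 in either direction. A plus or minus sign marks the 19 pairs above and the 29 below the rest in at least 90% of libraries, and neutrophils carry 5 of the plus signs.

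A stricter comparison asked for a difference of 2-fold or more in every library. Over macrophages, CD8 T cells passed for Fasl and Tnfsf10, 2 of 8 members (6.30% of genes). The smallest Fasl ratio was 29.0, in library 6, and the smallest Tnfsf10 ratio 3.29, in library 11. In the other direction, macrophages passed over CD8 T cells for Tnf and Tnfrsf1a, 2 of 8 (10.4% of genes). Neutrophils passed over macrophages for Fas and Tnfrsf1b, 2 of 6 (2.98% of genes), and macrophages over neutrophils for none of 6 (5.10% of genes). Between NK and CD8 T cells no member passed in either direction (0.625% and 1.07% of genes), nor between monocytes and macrophages (1.78% and 2.03%). Of the pair of Tcf7 and Havcr2 CD8 T cells, Tnf was past 2-fold as higher with Tcf7, 1 of 8 (1.10% of genes), on the few UMIs of 3 libraries given above, and 0 of 8 passed as higher with Havcr2 (2.07% of genes).

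By the share of libraries alone, monocytes exceeded macrophages for Fas, Tnfrsf1a, Tnfrsf1b, Casp8 and Cflar, 5 of 6 members (19.7% of genes), and macrophages exceeded monocytes for none of 6 (32.1% of genes). Neutrophils exceeded monocytes for Fas, Tnf, Tnfrsf1a and Tnfrsf1b, 4 of 6 (13.2% of genes), and monocytes exceeded neutrophils for Casp8, 1 of 6 (36.6% of genes). Mature DC exceeded cDC1 for Fas and Cflar, 2 of 6 (14.3% of genes), and cDC1 exceeded mature DC for Tnfrsf1a (15.1% of genes). CD8 T cells exceeded CD4 T cells for Fasl, 1 of 8 (4.57% of genes), and CD4 T cells exceeded CD8 T cells for Cflar, 1 of 8 (5.91% of genes). NK cells exceeded CD8 T cells for 0 of 8 (2.97% of genes) and CD8 T cells exceeded NK cells for 0 of 8 (7.35% of genes). Cycling CD8 T cells exceeded those with Havcr2 for 0 of 8 (8.06% of genes).

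**Figure D5:**
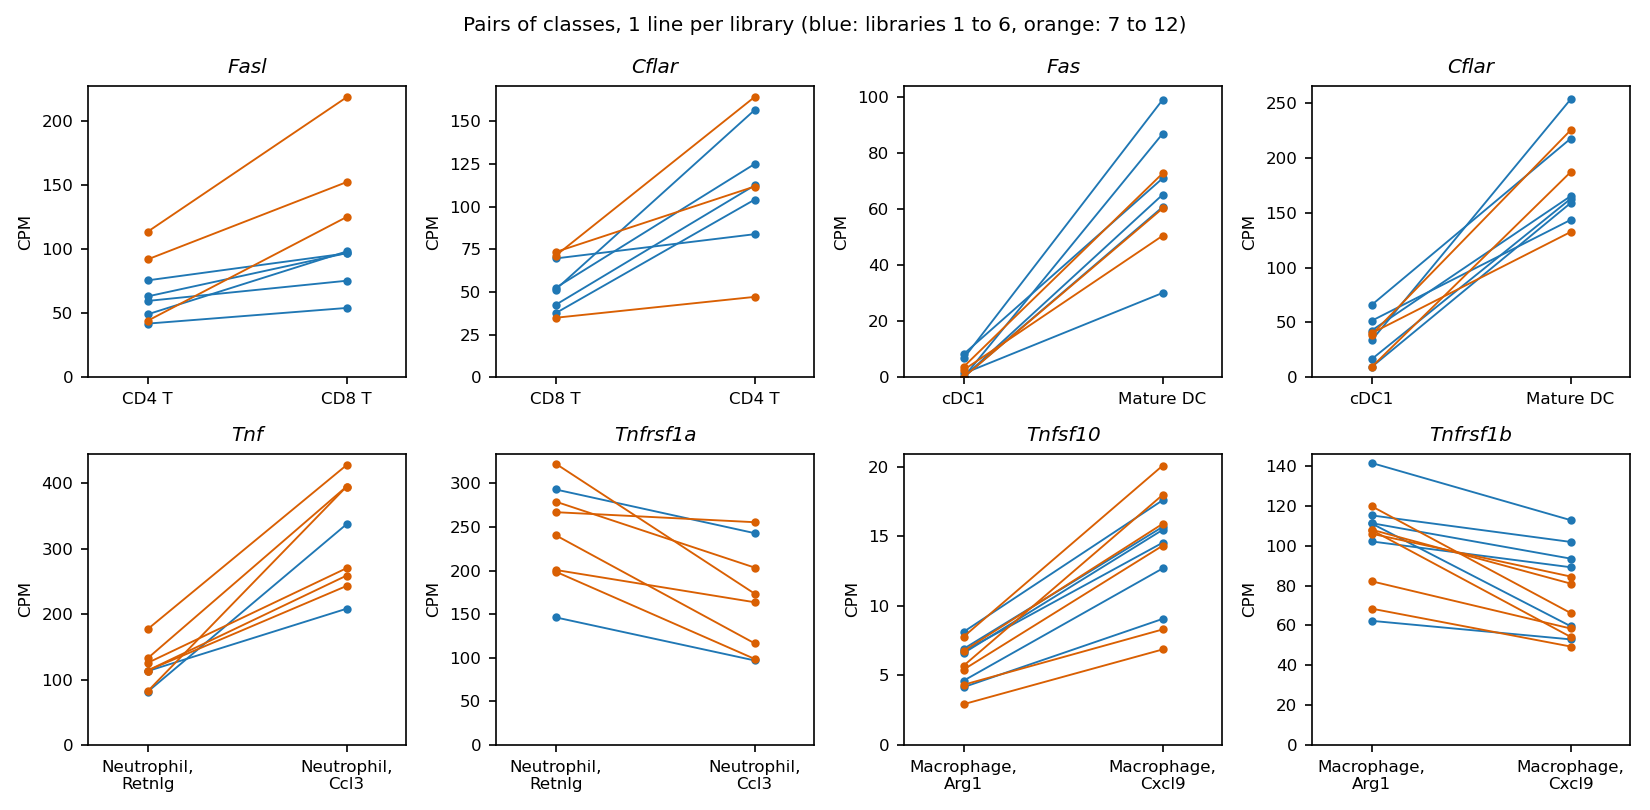
Levels in CPM of 1 gene in a pair of classes, each line joining the values of 1 library, blue for libraries 1 to 6 and orange for libraries 7 to 12. Every line of a panel runs the same way, as for Tnf in neutrophils with Ccl3 against Retnlg in 8 of 8 libraries and Tnfsf10 in Cxcl9 against Arg1 macrophages in 12 of 12.

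Of the 30 other genes of the pathway, the number above the rest was 5 of 23 tested in CD8 T cells (34.6% of all genes tested), 7 of 25 in CD4 T cells (14.6%), 2 of 24 in NK cells (11.5%), 2 of 23 in cDC1 (12.4%), 8 of 23 in mature DC (19.3%), 3 of 23 in Cd209a DC (7.43%), 5 of 25 in monocytes (18.1%), 6 of 24 in macrophages (29.0%) and 6 of 25 in neutrophils (14.7%). The number below was 9 (31.4% of all genes), 8 (16.5%), 5 (20.2%), 11 (23.3%), 8 (36.3%), 4 (12.7%), 4 (31.4%), 11 (24.8%) and 7 (45.5%) in the same order. Ltb, a lymphotoxin subunit, was at 333.7 CPM in CD8 T cells (rest 16.9 CPM) and 568.9 CPM in CD4 T cells (rest 21.9 CPM). Birc2, a ubiquitin ligase that keeps TNF receptor signaling from killing, was at 297.5 CPM in mature DC (239.5 to 559.9) against 32.5 CPM. Neutrophils carried Tnfrsf23, a mouse decoy receptor of TRAIL, at 190.7 CPM (20.8 to 452.4) against 8.01 CPM in the rest, and Ltb at 107.8 CPM against 21.3 CPM. Also above the rest in neutrophils were Nfkbia, the inhibitor that holds NF-kB in the cytoplasm, at 3195 CPM against 432.7 CPM, Tnfaip3, the ubiquitin editor A20, at 776.0 CPM against 187.0 CPM, and Birc3, a ubiquitin ligase, at 267.5 CPM against 52.8 CPM. Cyld, a deubiquitinase of the same pathway, was at 52.5 CPM against 44.7 CPM and was not called. Nfkbia was also above the rest in CD4 T cells (983.0 against 438.9 CPM), as was Tnfaip3 (763.8 against 210.3 CPM). In macrophages the genes furthest above the rest were Tnfsf12 (TWEAK) at 44.98 CPM against 23.8 CPM, and Tnfrsf21 (death receptor 6) at 30.5 CPM against 17.0 CPM. Adam17, the protease that releases TNF from the cell surface, was at 117.8 CPM in macrophages against 71.2 CPM. Monocytes were above in Daxx, at 79.5 CPM against 41.9 CPM, and in Ripk3, a kinase of necroptosis, at 33.4 CPM against 22.5 CPM.

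The genes most like a member across the 9 classes were found by the Pearson correlation of log2(median CPM + 10) among 7405 genes, a description over 9 points that share libraries and depth. Most like Fasl were Cd96, Gimap7 and Sh2d2a (r = 0.9998 to 0.9992), lymphocyte genes. For Tnfsf10 they were Ctla2a, Tpp2 and Ldlrad4 (0.985 to 0.979), and for Tnf Cd33, Ppard and Cwc25 (0.987 to 0.981). For Fas they were Abtb2, Amn1 and Ostf1 (0.965 to 0.942), for Tnfrsf1a Mtm1, Nfam1 and Hk2 (0.984 to 0.973) and for Tnfrsf1b Spen, Vps13d and Hilpda (0.982 to 0.978). Tnfrsf10b was under 20 CPM in every class and its likeness is not given.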

How the data were processed

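CD45+ cells were isolated with microbeads and profiled with the 10x Genomics 3′ v3 kit. The authors processed reads with Cell Ranger on mm10 (version 2.1.1 in the submitters' processing notes, 3.0.2 in the matrix header) and deposited 1 matrix of raw UMI counts, without normalization; the annotation used was not stated. Values per library were computed here with Python 3.11.15, numpy 2.4.6, scipy 1.17.1 and pandas 2.3.3, and plotted with matplotlib 3.10.9.

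The study's cell limits were applied: over 200 and under 5000 genes, with mitochondrial UMIs up to 10%. Fewer cells passed than the study states, and the difference was not resolved. Gates required lineage UMIs (for example 2 Cd3 UMIs for T cells, 50 macrophage marker UMIs per 10000 for macrophages, 10 neutrophil UMIs for neutrophils) and limited those of other lineages. State subsets needed 1 UMI of the marker in T cells, 3 of Cxcl9 or Arg1 in macrophages and 2 in neutrophils. Macrophages with Mrc1 and Folr2 needed 1 UMI of each and could also be in another macrophage state. Tcf7 cells had no UMI of Havcr2 or Mki67, and Havcr2 cells none of Tcf7 or Mki67. Cxcl9 macrophages had no UMI of Arg1, Arg1 macrophages none of Cxcl9, and Ccl3 neutrophils none of Retnlg. No doublet caller was run. The gates limited UMIs of other lineages but did not require their absence, so some barcodes of 2 lineages can remain in a class. Gate thresholds were set after the marker distributions were seen. The members, gene lists and pairs of classes were chosen with earlier results of these data known.

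Every member is reported. Other pathway genes named were those furthest above the rest among the genes called in a class. As exceptions, Adam17, Ripk3, Cyld, Tnfaip3 and Nfkbia in CD4 T cells were picked for what they do after their values were seen. The pairs plotted were picked likewise. Pathway genes below the rest were counted but not named. Not every counted gene is named, and 1 item is not reported here. A class entered for a library with at least 20 of its cells and was called with at least 4 such libraries; background shares count genes at 10 CPM or more in the class or in its comparison,. Intervals are exact Poisson (CPM), Clopper-Pearson (shares, and ratios from the share of 1 gene). The depth limits precision: UMIs kept per library ranged from 20580550 to 100452772. All 12 samples were labelled, but no library could be tied to one by its label, so libraries were used as unassigned samples, described one by one, and tests of EZH2i against vehicle were not run. The procedure was tested on simulated data. Alternatives changed the filters, gates, weighting of cells, depth and libraries.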

Additional observations from a re-analysis of the deposited data

Results flagged for a closer look

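Barcodes that held at least 2 UMIs of Cd3 genes and at least 50 macrophage marker UMIs per 10000 entered no gate. In the comparisons above they counted only among all other kept cells of a library. They drew attention because Fasl, a transcript that gated macrophages nearly lacked, was counted in them at 23.4 CPM (21.2 to 25.8) from 411 UMIs in 2501 barcodes. Library 6 held 1471 of these barcodes, so pooled values describe mostly that library. The level was 20.4 CPM at the median of 10 libraries (13.1 to 40.3), above gated macrophages and below gated CD8 T cells in 10 of 10 libraries. A Fasl UMI was present in 13.4% of these barcodes (12.1 to 14.8). The median depth was 5198 UMIs, against 5128 in gated macrophages. Tnf was at 33.7 CPM (15.8 to 73.0) and Tnfrsf1a at 85.9 CPM (72.1 to 100.3), both above gated CD8 T cells in 10 of 10 libraries. Whether these barcodes are doublets, cells in contact or macrophages with T cell transcripts was not tested.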

How the results depend on the processing

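Of the 19 calls above the rest, 8 stood under every setting that could be run: Fasl in CD8 and CD4 T cells, Tnfsf10 in CD8 T cells, Fas in mature DC and neutrophils, and Tnf, Tnfrsf1a and Tnfrsf1b in neutrophils. The number of calls was 11 when a class had to reach 1.5 times the rest, which removed Fas in CD8 T cells (8 of 11 libraries), Tnfrsf1b in CD4 T cells (7 of 8), Cflar in mature DC (10 of 12), monocytes (7 of 12) and neutrophils (9 of 12), Tnfrsf1a (8 of 12) and Casp8 (2 of 12) in monocytes and Fadd in macrophages (4 of 12). It was 14 to 21 under the other settings that kept all or some libraries, and 19 to 22 with 1 library left out. No call was lost with a library left out and none of the 19 reversed. After thinning to 1000 UMIs, the calls lost were Fas in CD8 T cells (9 of 11 libraries), Tnfsf10 in CD4 T cells (7 of 8), Fasl (6 of 7) and Tnfsf10 (5 of 7) in NK cells, Casp8 in monocytes (9 of 12), Fadd in macrophages (10 of 12) and Cflar in neutrophils (9 of 11). With a mitochondrial limit of 5%, Tnfsf10 in CD4 T cells (7 of 8) and Fasl in NK cells (5 of 6) were lost. With cells weighted equally, Fas in CD8 T cells (9 of 11) and Cflar in neutrophils (10 of 12) were lost. Within libraries 1 to 6, Casp8 in monocytes and Cflar in neutrophils held in 5 of 6, and libraries 7 to 12 held too few CD4 T and NK cells to call. The cause of these losses was not tested. Calls were gained without library 4 or 12 (Fas and Tnfrsf1b in monocytes), 10 or 12 (Tnfrsf1b in CD8 T cells), 9 (Fas in CD4 T cells) and 6 (Casp8 in Cd209a DC). With all libraries, gains were Tnfrsf1b in CD8 T cells (5% mitochondrial limit, no upper gene limit, at most 1 UMI of another lineage, at least 50 cells), Tnfrsf1b in monocytes (no upper gene limit, 1 more marker UMI), Fas in monocytes (at most 1 UMI of another lineage), Fas in CD4 T cells (thinned, equal weights) and Casp8 in Cd209a DC (thinned, 5% limit). Within libraries 1 to 6, Tnfrsf1b in CD8 T and Fas in CD4 T cells were gained. Leaving out barcode sequences shared by libraries, a setting chosen after seeing the data, kept all 19, and leaving each library out of the pooled values was added in the same way. Across all genes and 5 pairs of classes, 2667 differences passed the 2-fold rule, 4654 a fold of 1.5, 1022 a fold of 4 and 1352 with genes limited to 50 CPM, which follows from the rule, and 2712 to 3467 with 1 library left out. Members passed 7 times at 2-fold (7 to 8 with 1 library left out) and 1 time at 4-fold, Fasl in CD8 T cells over macrophages. The comparison of EZH2i with vehicle and its alternatives were not run. No paired analysis was possible because no label ties a library to a sample and no test between groups was made.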
